A study of Mus musculus with 33 samples.

Results

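The miR-297, miR-466, miR-467 and miR-669 families were followed in mouse lung on microarrays. Their members were every miRNA on the array whose design name starts with mmu-miR-297, mmu-miR-466, mmu-miR-467 or mmu-miR-669, any arm or star included. This gave 39 of the 611 mouse miRNAs on the array, namely 3 of the miR-297, 14 of the miR-466, 10 of the miR-467 and 12 of the miR-669 family, measured by 106 probes. The study instilled female, non-pregnant C57BL/6 mice through the trachea with carbon black nanoparticles (Printex 90, 0.162 mg) or with the vehicle, and took lung RNA on days 1, 3 and 28. Vehicle controls, given 0.9% NaCl in water with 10% of acellular bronchoalveolar lavage fluid, numbered 6, 6 and 6 at days 1, 3 and 28, and exposed mice, given the particles in the same vehicle, 6, 4 and 5. Ages are not given in the labels, and each array held the RNA of 1 mouse, per the series design. All values are of whole lung, where fewer cells of a type and less RNA per cell cannot be told apart.

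The 4 families are the namesakes of a large rodent miRNA cluster in an intron of Sfmbt2, which encodes a Polycomb group protein. Sfmbt2 is imprinted and expressed from the paternal allele in early embryos and extraembryonic tissue, and the cluster is best known from embryonic stem cells and placenta. The precursors are built from short repeats, so that in general 1 arm of a hairpin is rich in alternating U and G and the other in alternating C and A. Some members have been linked to single targets, among them miR-467b to lipoprotein lipase in macrophages, miR-466l to interleukin 10 in macrophages and miR-669a to the muscle factor MyoD.

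The cluster's name covered most but not all of the members. In the RefSeq gene table of GRCm38.p6, 82 miRNA genes carried one of the 4 family names and 72 of these lay inside Sfmbt2. By gene, 29 of the 39 members lay only inside Sfmbt2 and 3 had copies inside and outside, miR-297a* (a further copy on chromosome 7) and both arms of miR-466f (a further copy on chromosome 13). The 5 members miR-466i (chromosome 13), miR-466j (chromosome 10), miR-466k (chromosome 3), miR-467f (chromosome 11) and miR-467g (chromosome 5) had genes only elsewhere, and the 2 arms of miR-466a matched no gene of the table. Of the 32 members with a gene inside Sfmbt2, 11 were above background on at least 1 array, and of the 5 with genes only outside, 3 were. The set is therefore called the 4 families here.

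Mature sequences of 5 members were taken from RefSeq (GRCm38.p6), 4 by miRNA name and miR-466i by gene symbol, where the entry is miR-466i-3p and the array's name gives no arm. They are shown 5′ to 3′ so that the letters of 3 members seen in lung can be set beside those of 2 that were not. The other 34 members could not be matched to a sequence in this way. All 5 shown have genes only outside Sfmbt2, so no member with a gene inside it is represented. The seed, bases 2 to 8, is in capitals.
miR-466i: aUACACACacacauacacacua
miR-467f: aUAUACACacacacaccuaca
miR-467g: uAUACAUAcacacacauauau
miR-466j: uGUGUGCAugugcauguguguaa
miR-466k: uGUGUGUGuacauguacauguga

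The 5 seeds were all different. miR-466i (chr13:17747552-17747573, plus strand), miR-467f (chr11:69635419-69635439, minus strand) and miR-467g (chr5:34732872-34732892, minus strand) are 86.4%, 85.7% and 71.4% C or A, and each holds CACACACA. These 3 were above background on 16, 17 and 6 of the 33 arrays. miR-466j (chr10:60960802-60960824, plus strand) and miR-466k (chr3:85467396-85467418, plus strand) are 26.1% and 30.4% C or A, and both were above background on 0 arrays. miR-466k, but not miR-466j, holds GUGUGUGU. With 5 sequences this is a description. Among 158 other mouse miRNAs of the array with a RefSeq mature sequence under the same name, 2 held GUGUGUGU, miR-574-5p and miR-1187, above background on 22 and 2 arrays. Of the 158, 35 (22.2%) were above background on at least 1 array. Of the same 158, 0 held CACACACA. Both motifs were searched on the miRNA's own strand, in mature sequences only, and the CACACACA search was added after the values were seen.

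Across the series 14 of the 39 members (35.9%) were above background on at least 1 array, against 216 of 611 mouse miRNAs (35.4%). Here a miRNA is above background when, for any of its probes, the scanner software's flag calls the majority of the unflagged spots well above background. No member was above background on all 33 arrays, where 94 mouse miRNAs were. As another imprinted miRNA cluster, the Dlk1-Dio3 list had 2 of 71 members above background on any array, miR-494 on 2 arrays and miR-376c on 1.

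miR-669f was seen most often, on 26 of 33 arrays, followed by miR-466f-3p on 20 and miR-467f on 17. miR-466g, miR-466i and miR-467a* were each seen on 16 arrays, miR-467b* on 11, and miR-467b and miR-669c on 9 each. miR-467e* and miR-669h-3p were above background on 7 arrays each, miR-467g on 6, miR-669a on 2 and miR-297a* on 1. By family these are 1 of 3 miR-297, 3 of 14 miR-466, 6 of 10 miR-467 and 4 of 12 miR-669 members. The other 25 were above background on no array, 2 of the miR-297, 11 of the miR-466, 4 of the miR-467 and 8 of the miR-669 family, miR-466l among them.

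**Figure D1:**
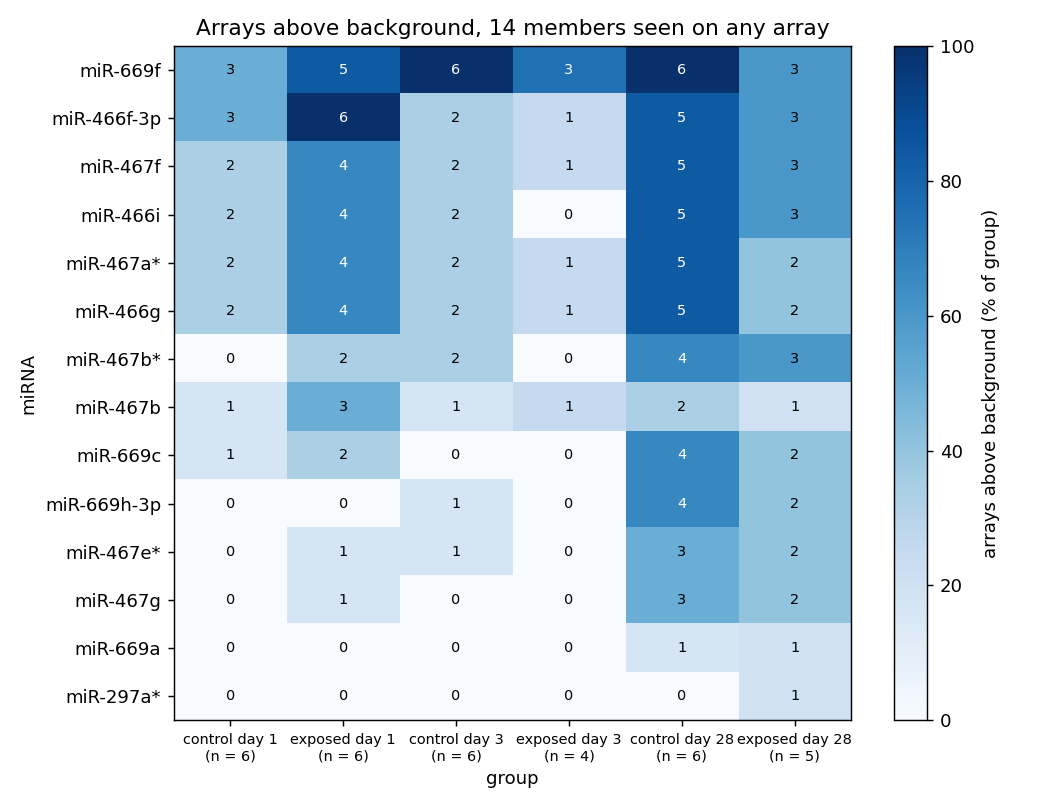
Number of arrays above background (printed in each cell) for the 14 members seen on any array, by group; the colour gives the share of the group's arrays in percent. miR-669f was above background on all 6 arrays of the day 3 and day 28 controls, and no member was seen on every array of every group.

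The arms of a hairpin were not seen alike. The array held both named arms of 7 precursors, and a star marks the minor arm in the older naming. For miR-466f, the 3p arm was above background on 20 arrays and the 5p arm on 0. For miR-467a, the star arm was seen on 16 arrays and the other on 0, and for miR-467e on 7 and 0. For miR-669h, the 3p arm was seen on 7 arrays and the 5p arm on 0. miR-467b was the exception, with the star arm on 11 arrays, the other arm on 9 and both together on 4. Neither arm of miR-466a or miR-466d was seen on any array. Only the number of arrays is compared here, since levels of different probes cannot be set against each other. These counts depend on the probes as well, since the flag is set on their signal and any probe can pass. miR-467b* and miR-467e* had 4 probes each, against 2 each for miR-467b and miR-467e. Both arms of miR-466f had 4 probes, and both arms of miR-467a and of miR-669h had 2.

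The background flag is set per array, and the arrays differed in brightness. The 75th percentile of processed signal over 156 probes above background on all arrays ranged from 187 to 1211 units. At day 1 the control arrays had a median of 1 member above background, at 187 to 985 units (median 365), and the exposed arrays 7, at 545 to 791 units. At day 3 both groups had a median of 1.5, with median brightness of 635 units among controls and 625 among exposed arrays. At day 28 the control arrays had a median of 10, at a median of 985 units, and the exposed arrays 5, at 481 units. Counted over all 611 mouse miRNAs, the day 1 medians per array were 129 for controls and 162.5 for exposed lungs. At day 3 these medians stood at 145.5 and 148, and at day 28 at 175.5 and 138. At days 1 and 28 the group with more members seen was the brighter one and also had more mouse miRNAs seen. The part of brightness in the counts was not tested. Over all groups, the 5 dimmest arrays had 0 to 1 members above background and the 5 brightest, at 1050 to 1211 units, had 8 to 14.

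**Figure D2:**
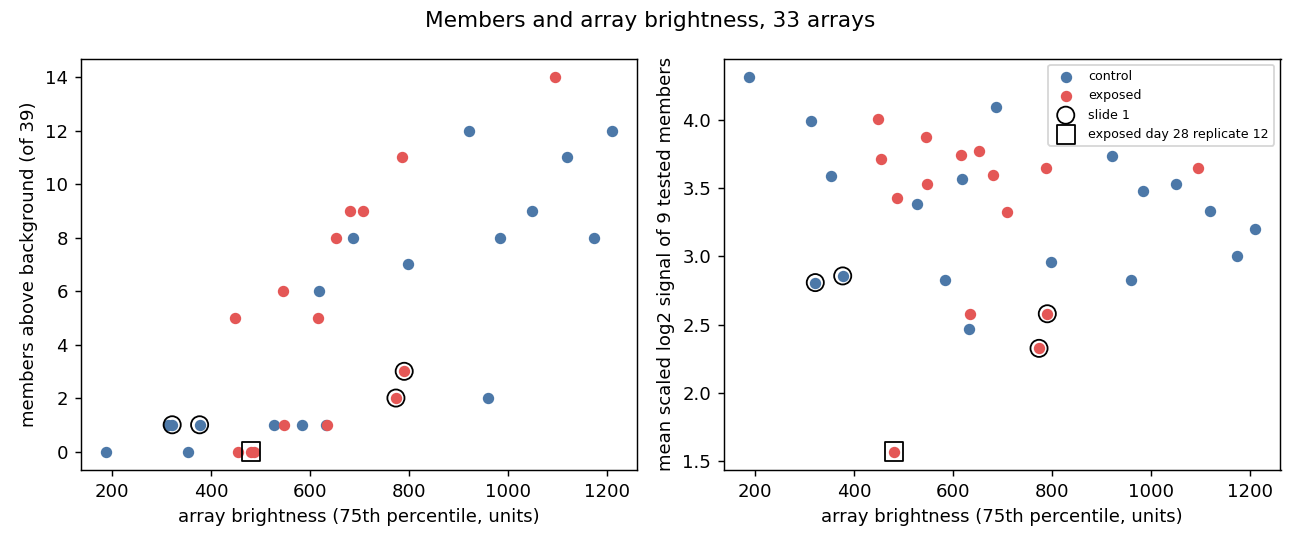
Members above background (left) and the mean scaled log2 signal of the 9 tested members (right) against array brightness for 33 arrays; points are single arrays, with slide 1 circled and exposed day 28 replicate 12 in a square. The largest count, 14 members, was on an array of 1095 units, and the highest mean log2 signal, 4.31, was on the dimmest array, of 187 units, where 0 members were above background.

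Levels were compared where a miRNA was above background on 4 or more arrays of some group, a filter passed by 9 of 39 members and 171 of 611 mouse miRNAs. They were miR-466f-3p, miR-466g and miR-466i, miR-467a*, miR-467b* and miR-467f, and miR-669c, miR-669f and miR-669h-3p. Of them, miR-467b*, miR-669c and miR-669h-3p reached 4 arrays only in the day 28 controls, the group of highest median brightness. That group also enters every comparison that includes day 28. Each tested member is given by its brightest probe, as log2 of the processed signal after scaling arrays to the same 75th percentile. On this log2 scale the members' means over 33 arrays were 2.78 to 4.05. Before scaling, the processed signal of miR-669f, the member seen most often, was 6.13 to 34.7 units with a median of 17.3, and that of miR-466f-3p 2.59 to 24.5 with a median of 12.8. The lowest log2 signal that counted as above background was 2.53 to 5.20 depending on the array. The tested members thus lay close to the detection limit of these arrays.

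miR-669f had log2 signals in controls of 3.85 to 4.47 (median 4.26, n = 6) at day 1, 3.97 to 4.58 (median 4.07, n = 6) at day 3 and 3.66 to 4.13 (median 3.97, n = 6) at day 28. The exposed lungs of day 1 had 3.61 to 4.34 (median 4.05, n = 6), those of day 3 had 3.68, 3.81, 3.83 and 4.29, and those of day 28 had 3.35, 3.91, 3.92, 4.14 and 4.30. The groups overlapped at each day, and at days 1, 3 and 28 the lowest array of the day was an exposed one. Its log2 changes, exposed minus control, were -0.21 ± 0.15 (SE, limma adjusted p = 0.571) at day 1, -0.26 ± 0.17 (adjusted p = 0.996) at day 3 and -0.029 ± 0.16 (adjusted p = 0.986) at day 28. On the same slide it was higher in the exposed lung in 1 of 6 pairs at day 1, 1 of 4 at day 3 and 2 of 5 at day 28.

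miR-466f-3p had log2 signals in controls of 3.23 to 4.74 (median 3.83) at day 1, 2.90 to 4.42 (median 3.22) at day 3 and 2.80 to 3.88 (median 3.45) at day 28. The exposed lungs of day 1 ranged from 2.83 to 4.32 (median 3.92), those of day 3 were at 2.10, 2.97, 3.82 and 4.11, and those of day 28 at 1.76, 3.78, 3.84, 3.89 and 4.34. The groups overlapped over most of their range at every day. The array at 1.76 was exposed day 28 replicate 12, the lowest of all 33. Its log2 changes were -0.20 ± 0.37 (SE, limma adjusted p = 0.794), -0.16 ± 0.42 (adjusted p = 0.996) and 0.068 ± 0.39 (adjusted p = 0.986) at days 1, 3 and 28. Its count above background was 6 of 6 exposed and 3 of 6 control arrays at day 1, 1 of 4 and 2 of 6 at day 3, and 3 of 5 and 5 of 6 at day 28.

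miR-467f and miR-466i, whose C and A rich sequences are printed above, had genes only outside Sfmbt2. The control lungs averaged a miR-467f log2 signal of 3.65 ± 0.52 (SD, n = 6) on day 1, 3.18 ± 0.56 (n = 6) on day 3 and 3.28 ± 0.46 (n = 6) on day 28. The exposed lungs averaged 3.60 ± 0.49 (SD, n = 6), 3.06 ± 0.61 (n = 4) and 3.44 ± 0.79 (n = 5), within the spread of the controls. The log2 changes of miR-467f, -0.055 ± 0.32 (SE), -0.12 ± 0.36 and 0.16 ± 0.34, were smaller than their errors. miR-466i averaged 3.76 ± 0.52 (SD), 3.25 ± 0.60 and 3.34 ± 0.39 in controls of the same days, and 3.51 ± 0.49, 3.12 ± 0.64 and 3.46 ± 0.88 in exposed lungs. It was above background on 0 of 4 exposed and 2 of 6 control arrays at day 3, so that no fold could be given for that day.

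**Figure D3:**
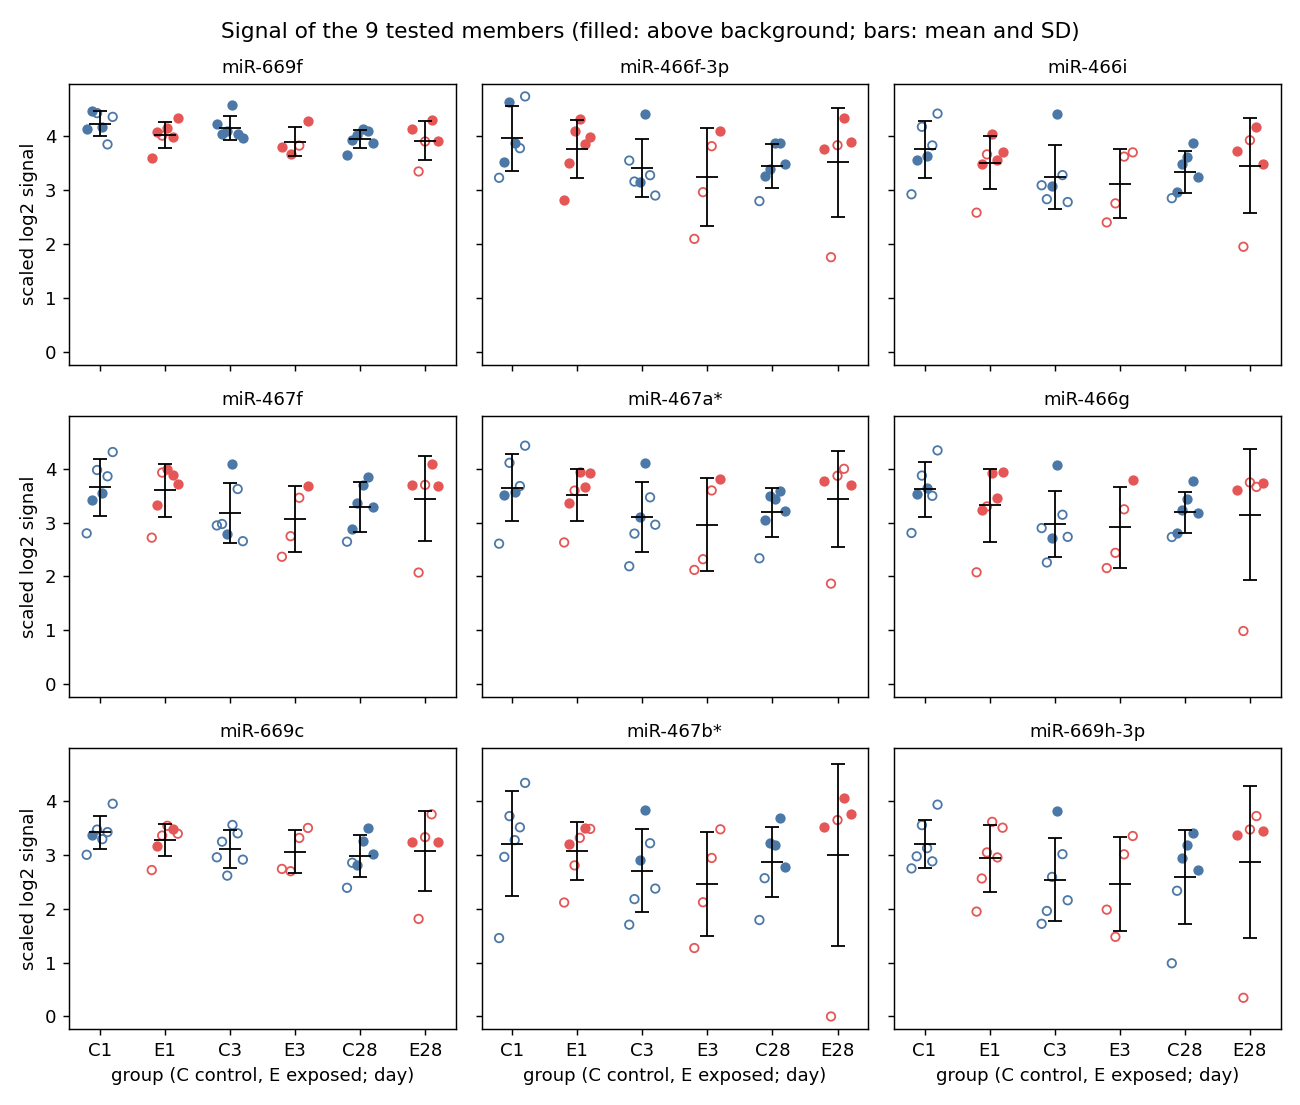
Scaled log2 signal of the 9 tested members in each group (C control, E exposed, with the day). Points are arrays, at the signal of the brightest probe, filled where any probe of the miRNA was above background and open where none was. Bars are the mean and SD. Groups overlap at every day in every panel, and 1 open point of the exposed day 28 group, replicate 12, lies lowest there in each panel.

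Over the whole fit, limma called 0 of the 9 tested members in any of the 3 exposure comparisons at an adjusted p under 0.05. The background was the same, 0 of 171 miRNAs or 0% at each day. At an unadjusted p under 0.05 the members called were again 0 at each day, against 8.77%, 1.17% and 7.6% of all tested miRNAs at days 1, 3 and 28. At day 1, 7 members were above background on some array of both groups, and all 7 log2 changes were negative, -0.29 to -0.055 with a median of -0.20 (SE 0.15 to 0.40), where the median of all 171 was -0.094. With the other 2 tested members, miR-467b* and miR-669h-3p, set at 0 because no fold could be given, the median was -0.14. The changes are those of each member's brightest probe. On day 1 another probe each of miR-466f-3p (0.48), miR-466g (0.47) and miR-669c (0.32) was positive, above background on 3, 2 and 2 arrays. All further probes of the 7 members were negative. At day 3, 5 members could be given a change, -0.26 to -0.060 with a median of -0.14 (SE 0.17 to 0.45), or -0.060 with the other 4 at 0, where the median of all was -0.036. At day 28 all 9 had one, 7 above and 2 below 0, from -0.042 to 0.27 with a median of 0.12 (SE 0.16 to 0.57), where the median of all was -0.035.

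The sign at days 1 and 28 depended on the scaling. Without scaling between arrays, the 9 tested members had fitted day 1 changes of 0.37 to 0.60 and day 28 changes of -0.66 to -0.34, where the medians of all miRNAs were 0.57 and -0.65. Relative to the median of all miRNAs, the members' median was -0.11 at day 1 and 0.15 at day 28, -0.017 and -0.023 with quantile normalization, and 1.01 and 0.0057 with total gene signal. With the percentile taken over all probes the members' medians were -0.015 and -0.15, and with quantile normalization -0.013 and -0.083. With slide as a fixed block the day 3 median over the 9 turned from -0.12 to 0.14. Within slides, the exposed lung was higher in 1 to 3 of 6 pairs at day 1, 1 to 3 of 4 at day 3 and 2 to 4 of 5 at day 28, depending on the member, with differences from -2.56 to 2.39. Single arrays moved the members' medians too. Over the 9 members, the day 1 median of -0.20 was -0.029, with 3 members above 0, without exposed day 1 replicate 3, -0.047 without control day 1 replicate 27 and -0.35 without control day 1 replicate 1. The day 3 median was 0.12, with 8 of 9 members above 0, without exposed day 3 replicate 4, 0.060 without control day 3 replicate 21 and -0.38 without exposed day 3 replicate 33. All medians over the 9 include fitted changes of members given no fold above, 2 at day 1 and 4 at day 3. The day 28 median was -0.070 without exposed day 28 replicate 23 and -0.050 without control day 28 replicate 6. No direction of the 4 families after exposure is therefore stated.

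**Figure D4:**
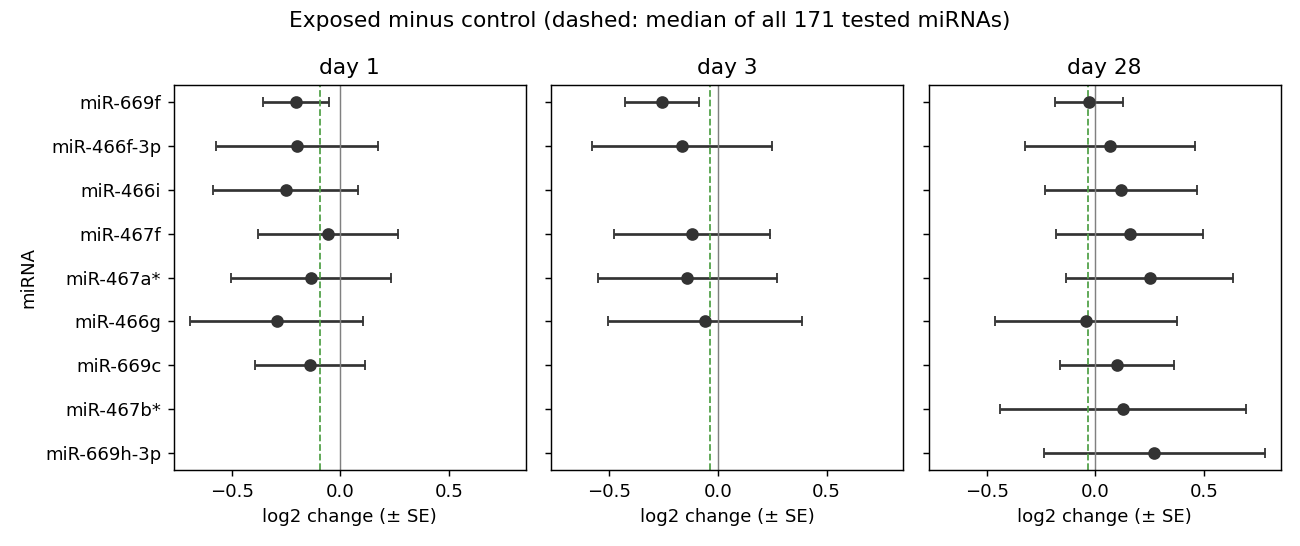
Log2 change, exposed minus control, with its SE, for the tested members above background on some array of both groups at each day (7, 5 and 9 members); the dashed line is the median of all 171 tested miRNAs. The bars of miR-669f at days 1 and 3 lie below 0 (adjusted p from limma 0.571 and 0.996), and all others reach 0.

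The difference between the exposure changes of 2 days was tested for each pair of days, and limma called 0 of the 9 members in each, at a smallest adjusted p of 0.930. All 171 miRNAs had 0 calls there too, or 0%, and 0 members had an unadjusted p under 0.05, against 2.34%, 7.02% and 1.75% of all miRNAs for day 3 minus day 1, day 28 minus day 1 and day 28 minus day 3.

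Among the vehicle controls alone, day 28 was set against day 1. Of the 9 members 0 were called, where limma called 11 of 171 miRNAs (6.43%), 10 of them lower. No member had an unadjusted p under 0.05, against 24% of all miRNAs. The 7 members with a change were all lower at day 28, by a log2 difference of -0.51 to -0.29 with a median of -0.42 (adjusted p = 0.231 to 0.493), where the median of all was -0.17. miR-669f had the smallest adjusted p, at -0.29 ± 0.15 (SE). Without scaling the changes of the 9 tested members were 0.58 to 0.90, where the median of all was 1.02, and the members' median was 0.0093 with the percentile over all probes and 0.012 with quantile normalization. Day 3 against day 1 in controls also gave 0 members called and 0% of all miRNAs. The 6 members with a change had log2 differences of -0.65 to -0.077, and 0 had an unadjusted p under 0.05, against 4.68% of all miRNAs. Without scaling the 9 fitted differences were 0.0092 to 0.59. Both comparisons use the day 1 controls, as does the exposure comparison of day 1.

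The tested members varied together from array to array. Over the 33 arrays, the 36 pairs had a Pearson r of 0.64 to 0.96 with a median of 0.90, and 0.90 after removing each group's mean, where the 13041 pairs of other tested miRNAs had a median of 0.11. The highest was between miR-467f and miR-466i, encoded on chromosomes 11 and 13 (r = 0.96), and the lowest between miR-669f and miR-467b*. All share the arrays, their scaling and a level near background, so r is given as a description. Whether near-identical members share labelled RNA on a probe was not tested. The miRNAs outside the families most like miR-669f were miR-1196 (r = 0.76), miR-1894-5p (0.72) and miR-207 (0.71), with mean log2 signals of 2.96 to 3.41, where the median r of 162 other miRNAs was 0.18.

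**Figure D5:**
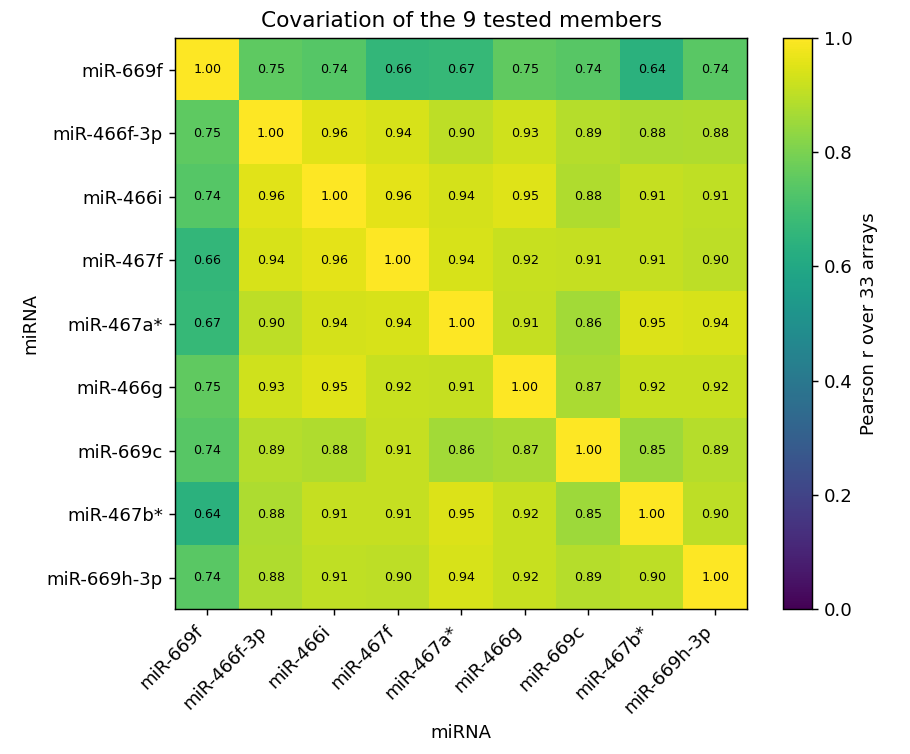
Pearson r of scaled log2 signal over 33 arrays between the 9 tested members, ordered by mean signal. Off the diagonal, values lie between 0.64 and 0.96, and the row of miR-669f, between 0.64 and 0.75, is the lowest.

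The mean log2 signal over the 9 tested members ranged from 1.57 to 4.31 per array, with a median of 3.48, and some slides were low throughout. The 4 arrays of slide 1, 2 control and 2 exposed, lay at 2.33 to 2.86, and those of slide 3 at 1.57 to 2.96. The arrays of slide 8 lay at 3.65 to 4.31. Exposed day 28 replicate 12, on slide 3, was the lowest at 1.57 and had 0 members above background. Its brightness of 481 units was the median of its group. Without it the day 28 exposure median of the 9 members was 0.50 in place of 0.12, and again 0 members were called (smallest adjusted p = 0.527). Without slide 1, the day 1 median was -0.16 and the day 3 median 0.025, with 0 members called, and all 14 members remained above background on at least 1 of the 29 other arrays.

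The lung label was set against marker miRNAs. All 3 hematopoietic, 3 erythroid and 3 ciliated cell markers and 5 of 6 epithelial markers were above background on all 33 arrays. Of the 2 endothelial miR-126 arms, 1 was so on all arrays. Of 6 markers of embryonic stem cells and early placenta, the settings where the Sfmbt2 cluster is best known, 1 was above background on any array. Of 4 muscle markers 3 were seen on some arrays, as were the liver marker miR-122 and 1 of 3 brain markers.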

How the data were processed

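Lung miRNA of 33 mice was measured on 1-colour Agilent arrays. The deposited scanner files hold spot intensity on a linear scale, made with Feature Extraction 10.7.3.1 and background-subtracted, with no normalization between arrays, per the file headers. The authors' value table for the series holds deposited log2 values, with scaling and centring unknown, since no source used here gives them. Correlation of each column with that array's own log2 median signal was 0.985 to 0.993, so its direction is brighter as higher, and the column medians were 5.41 to 5.43. The files' other columns used are flags of 0 or 1.

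Flagged spots (2.3%) were left out, spots averaged per probe, arrays scaled to an equal 75th percentile over 156 probes above background on all arrays, floored at 1 and log2-transformed. The probe of highest mean stood for each miRNA. The probes of 3, 4 and 3 of the 9 tested members differed in the sign of the change at days 1, 3 and 28. No member spot was saturated. Using limma 3.58.1 under R 4.3.3, 1 model with a mean for each of the 6 groups was fitted to all 33 arrays, with an intensity trend, two-sided tests and Benjamini-Hochberg adjustment over 171 miRNAs at a threshold of 0.05. The fit was tested on simulated data. Where a group had no array above background for a member, only a bound applies. The mean of the group with arrays above background was set against that of the group with none. Each array of the latter group was taken at its lowest signal above background, or at the probe's own signal if that was higher. No fold is given where this bound was under 1.

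Every tested member was named, and every other member seen on any array. Sequences were to be printed for tested members and for up to 2 of a family with none tested. miR-466j, miR-466k and miR-467g were added after their values were seen. Members and lists were chosen with earlier results of these data known. Replicate numbers run through the series and pair no samples. Alternatives changed the background correction, signal, scaling, floor, filter, slide and arrays included. The files have no mean signal column, so normexp used the median signal. The number of arrays limits the precision.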

Additional observations from a re-analysis of the deposited data

Results flagged for a closer look

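Of 54 sets of values (9 tested members in 6 groups), 9 held an array far from the others of its group, where chance flags about 1 set in 20. The same share over all 171 tested miRNAs is not given here. Of the 9 flagged sets, 7 came from 1 array, exposed day 28 replicate 12, and the sets are not independent because the members vary together. That array was lowest in its group for all 9 tested members. Its log2 signals in the 7 sets were 1.76 for miR-466f-3p, 0.99 for miR-466g, 1.87 for miR-467a*, 0 (the floor) for miR-467b*, 2.07 for miR-467f, 1.81 for miR-669c and 0.35 for miR-669h-3p. The next lowest exposed arrays of that day lay at 3.78, 3.61, 3.69, 3.52, 3.67, 3.23 and 3.37. The other flagged values were miR-466g at 2.08 in exposed day 1 replicate 3, an array of slide 1, against 3.24 for the next, and miR-466i at 4.41 in control day 3 replicate 21, against 3.28.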

How the results depend on the processing

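The count of members called was 0 in all 8 comparisons, and it was 0 for the 3 exposure comparisons under 13 alternatives, 1 of which left no member to test, and with each of the 33 arrays left out. For day 28 against day 1 in controls it was 9 with normexp (-0.97 to -0.88), 1 without scaling (miR-669f, 0.90, adjusted p = 0.0236) and 1 with no filter (miR-467d, above background on no array, adjusted p = 0.0201). Of all miRNAs, 126 of 171, 142 of 171 and 16 of 611 were called in the same settings, in that order. For the day 28 minus day 1 exposure change the count of members was 9 with normexp (0.95 to 1.06). There 95 of 171 miRNAs were called and the median of all was 0.64. The normexp offset of 50 exceeds every tested member's processed signal, though normexp itself started from the median signal. The part of the offset and of array brightness in these values was not tested. With each array left out, counts were 0 to 0 in all 8 comparisons. Of 252 recomputed exposure changes of members, 75 turned in sign and 0 passed the threshold. A turn was counted as a reversal where the change exceeded its SE in either setting. Without scaling, day 1 changes reversed for miR-466f-3p (0.46), miR-467a* (0.53), miR-467f (0.60), miR-669c (0.52) and miR-669f (0.45), and day 28 changes for miR-466f-3p (-0.55), miR-466i (-0.50), miR-467f (-0.46) and miR-669c (-0.52). With total gene signal, day 1 changes reversed for miR-466g (1.18), miR-466i (0.97), miR-467a* (1.07), miR-467f (0.99), miR-669c (1.63) and miR-669f (0.77). With the series table they reversed for miR-467a* (0.046) and miR-467f (0.096) at day 1 and miR-669c (-0.032) at day 28, and with quantile normalization for miR-669c (-0.18) at day 28. At day 28 miR-466g reversed with a floor of 10 (0.20), normexp (0.48) and without exposed day 28 replicate 12 (its leave-one-out values ran from -0.19 to 0.50), and miR-669f with normexp (0.43). The cause of these reversals was not tested. No member was above background on all arrays, so that filter gave no changes. The median number of members above background per array rose with the software's own detection flag to 5 in day 1 controls, 12 in day 1 exposed, 9.5 in day 3 controls and 7 in day 3 exposed lungs. With any spot above background the last 3 were 12, 7 and 4. These rules gave 17 and 16 members on any array, and their day 28 medians are not given here. By replicate number, no paired analysis was possible because the numbers run through the series and the groups share none. Pairing by slide was possible and was run, as same-slide pairs and as a block. Slide as a fixed block turned the day 3 median of the fitted changes of all 9 tested members from -0.12 to 0.14.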
